A study of Homo sapiens with 6 samples.

Results

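Galectins are lectins that bind β-galactosides on cell surface and secreted glycoproteins, and they were followed here in T3M4, an established cell line from human pancreatic ductal adenocarcinoma. The 9 genes described, LGALS1, LGALS2, LGALS3, LGALS3BP, LGALS4, LGALS7, LGALS7B, LGALS8 and LGALS9, were chosen by symbol from the 58735 genes of the deposited count table. No cut-off on their values was used, but earlier results of these data were known at the time of the choice. RNA sequencing covered 3 libraries labelled WT, whose genotype label reads MUC16 expressing, and 3 labelled MUC16 knockout. All 6 came from cells of the line grown untreated in medium with serum to near confluence. MUC16 is a very large membrane mucin, and the comparison asks how gene expression differs with its loss. Whether the knockout is 1 clone or a pool is not given in the sources used here, and no label says that replicates were separate cultures. The p-values therefore rest on the spread among these 6 libraries, and that spread may be technical.

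Galectins share a conserved carbohydrate recognition domain. Prototype members such as galectin-1, galectin-2 and galectin-7 have a single domain and can pair. Galectin-3 is the chimera member, with a domain joined to a flexible tail, while galectin-4, galectin-8 and galectin-9 carry a pair of different domains on one chain. They are made in the cytosol, leave the cell without a signal peptide and crosslink glycoproteins outside it, and inside the cell they bind glycans exposed on damaged lysosomes and endosomes. LGALS3BP is not a galectin but a secreted, heavily glycosylated scavenger receptor family protein that galectin-3 binds. Mucins of the MUC16 and MUC1 type carry glycans that galectins bind.

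Library totals ran from 19088927 to 28612621 counts, and mitochondrial genes took 1.98% to 2.26% of them. MUC16, the gene named in the labels, went against them. It had 98, 144 and 90 counts in the WT-labelled libraries and 292, 504 and 323 in the knockout-labelled ones, a log2 fold change of 1.79 ± 0.17 (SE, adjusted p = 4.79e-09 by edgeR's quasi-likelihood test with Benjamini-Hochberg adjustment). Every direction below is therefore given by label, knockout against WT. Gene-level counts cannot tell edited from unedited transcripts. The epithelial markers EPCAM, KRT8, KRT18, KRT19 and CDH1 summed to 2887 to 2943 CPM (counts scaled to library size and TMM factor) in the WT-labelled libraries and 4730 to 4953 CPM in the knockout-labelled ones, and 5 of 5 were higher. Of the markers of other cells, PTPRC (leukocytes), COL1A2 and DCN (fibroblasts) and PRSS1 (acinar cells) had means of at most 0.179 CPM in either group. The 6 fibroblast markers summed to 30.7 to 34.1 and 42.4 to 46.7 CPM, nearly all from COL1A1, the 5 leukocyte markers to 3.42 to 4.27 and 5.33 to 6.35 CPM, and the 3 endothelial markers to 13.4 to 16.5 and 19.7 to 21.95 CPM. The part of these shifts in the galectin results was not tested.

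In these cells 5 of the 9 genes passed the filter on low counts, and all 5 of those tested differed between the groups at an adjusted p under 0.05. LGALS3, LGALS9, LGALS1 and LGALS3BP rose and LGALS8 fell. Across the transcriptome 52.6% of the 16655 genes tested were called, 26.7% higher and 25.9% lower, so a call by itself was common. The median log2 fold change of the 5 was 0.16, against 0.00348 for all genes tested. None of the 5 reached a 2-fold change, which 8.87% of the genes tested did while also being called. LGALS2, LGALS4, LGALS7 and LGALS7B stayed under the filter in the table as deposited.

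Sequences are shown for 2 reasons. The coding sequences of LGALS7 and LGALS7B show how nearly these neighbouring genes match, so that reads from the shared stretches could be counted for either, and promoters are shown for 3 members that rose together. In GENCODE release 29 the coding sequences of LGALS7-201 and LGALS7B-201 both have 411 bases with the stop codon and differ at 1 position. That substitution is G144C, with LGALS7 first and positions counted from 1 at the A of the start codon. Positions 119 to 169 of each are given 5′ to 3′, with the differing base in capitals.
LGALS7: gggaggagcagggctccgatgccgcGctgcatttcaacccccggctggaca
LGALS7B: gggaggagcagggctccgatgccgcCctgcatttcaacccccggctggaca

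Promoters were taken from RefSeq (GRCh38.p14) as the 250 bases before the annotated start. The windows of LGALS3 and LGALS9 lie inside the gene spans given below, and that of LGALS3BP lies partly inside. Starts of these genes without an entry were not searched. Entries were found for 8 of the 9 genes, LGALS1 being the one without. The sequences below are on the strand of the gene, and capitals mark matches on either strand to the core of the interferon-stimulated response element (GAAA, any bases NN, GAAA) or to GGGCGG, the GC box.
LGALS3 (chr14:55129002-55129251, plus strand): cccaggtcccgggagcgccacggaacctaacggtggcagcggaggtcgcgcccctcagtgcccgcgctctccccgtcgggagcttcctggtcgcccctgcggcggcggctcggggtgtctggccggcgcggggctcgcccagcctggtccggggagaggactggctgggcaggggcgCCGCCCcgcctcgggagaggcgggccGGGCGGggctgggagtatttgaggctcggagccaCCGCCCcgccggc
LGALS3BP (chr17:78979924-78980173, minus strand): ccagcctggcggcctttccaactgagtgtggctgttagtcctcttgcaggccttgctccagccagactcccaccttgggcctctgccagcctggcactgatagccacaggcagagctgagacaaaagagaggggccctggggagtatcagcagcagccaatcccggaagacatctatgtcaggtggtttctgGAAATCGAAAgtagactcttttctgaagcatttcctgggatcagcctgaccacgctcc
LGALS9 (chr17:27630938-27631187, plus strand): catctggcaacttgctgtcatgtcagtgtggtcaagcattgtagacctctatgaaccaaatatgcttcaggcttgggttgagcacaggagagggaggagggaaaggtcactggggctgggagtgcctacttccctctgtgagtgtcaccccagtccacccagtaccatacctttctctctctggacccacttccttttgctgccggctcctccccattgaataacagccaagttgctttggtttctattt

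The LGALS3 window was rich in G and C, 78.8% against a median of 58% over all 35116 promoter entries, and held 3 GC boxes. GC boxes were present in 42.6% of all entries, and among the other members in windows of LGALS7, LGALS7B and LGALS8. LGALS3BP held 1 match to the interferon response core, starting 58 bases before the start site, and 3.02% of all entries held one. In the LGALS9 window neither set of letters was found, which says only that these letters are not in these 250 bases. The kappaB-like letters (GGGA, any bases NNNN, CC), held by 22.6% of all entries, occurred once in each of the 3 windows. They were not particular to members that rose. LGALS4, which stayed under the filter, held 1 match, and a window of LGALS8, which fell, held 2. None of the 3 held TTCNNNGAA (in 6.57% of all entries), TGANTCA (6.57%), TATAAA (10.7%), GGAATG (11.9%) or ACGTG (18.5%). The same search found the interferon response core in 16 of the 22 genes with an entry among the 30 interferon-stimulated genes listed for this work.

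Among the galectins with a single recognition domain, LGALS1 was by far the most abundant. LGALS1 (ENSG00000100097, GRCh38 chromosome 22, 37675608 to 37679806, plus strand) had TMM-scaled levels of 238.5, 252.3 and 242.8 CPM in the WT-labelled libraries and 284.1, 259.5 and 273.4 CPM in the knockout-labelled ones. The 3 libraries labelled knockout were all above the 3 labelled WT, although the lowest of the former and the highest of the latter were close. Such separation of the groups was seen in 59.0% of the genes tested. LGALS1 rose 1.11-fold, a log2 fold change of 0.15 ± 0.04 (SE, edgeR quasi-likelihood, adjusted p = 0.00406). It kept its call in each alternative run, with the highest adjusted p, 0.0478, without KO replicate 1.

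LGALS3, the chimera galectin, rose more than LGALS1. LGALS3 (ENSG00000131981, chromosome 14, 55124110 to 55145413, plus strand) stood at 34.5, 36.6 and 35.7 CPM in the WT-labelled libraries and at 54.2, 51.5 and 53.9 CPM in the knockout-labelled ones. Its replicates lay close together, with a coefficient of variation of 2.92% and 2.81%, and the groups were far apart. The change was 1.49-fold, or 0.58 ± 0.06 on the log2 scale (SE, edgeR quasi-likelihood, adjusted p = 1.12e-08), above the log2 fold changes of 83.9% of the genes tested. The authors' deposited table gives LGALS3 a log2 fold change of 0.57 from the same counts.

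LGALS3BP, the galectin-3 ligand, had the highest counts of the 9 genes. LGALS3BP (ENSG00000108679, chromosome 17, 78971238 to 78980109, minus strand) reached 704.8, 772.4 and 750.3 CPM in the WT-labelled libraries and 835.5, 831.5 and 822.0 CPM in the knockout-labelled ones. All 3 knockout-labelled values were above all 3 WT-labelled ones and were more even, with a coefficient of variation of 0.833% against 4.64%. LGALS3BP rose 1.12-fold (log2 fold change 0.16 ± 0.04, SE, edgeR quasi-likelihood, adjusted p = 0.00174).

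Among the members, the tandem-repeat galectins that were tested, LGALS9 and LGALS8, went in opposite directions. LGALS9 (ENSG00000168961, chromosome 17, 27629798 to 27649560, plus strand), which is also an interferon-induced gene, had 5.05, 5.83 and 5.199 CPM in the WT-labelled libraries and 7.68, 8.56 and 8.33 CPM in the knockout-labelled ones. The groups did not overlap. LGALS9 rose 1.53-fold (log2 fold change 0.61 ± 0.12, SE, edgeR quasi-likelihood, adjusted p = 0.000191), with a 95% interval of 0.36 to 0.87 that overlaps that of LGALS3, 0.46 to 0.70. Of its windows of 100 bases in annotated transcripts 5.70% also occur in other genes, among them AC015688.4 and the copies LGALS9DP and LGALS9C.

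LGALS8 (ENSG00000116977, chromosome 1, 236518000 to 236552981, plus strand), the galectin that marks damaged endosomes for autophagy, was the one tested member that was lower in the knockout-labelled libraries. Its levels were 57.8, 54.7 and 58.2 CPM in the WT-labelled libraries and 50.6, 54.3 and 49.4 CPM in the knockout-labelled ones. The closest libraries, WT replicate 2 and KO replicate 2, were nearly equal, and no values overlapped. LGALS8 fell by 0.15 on the log2 scale, with an SE of 0.06 (edgeR quasi-likelihood, adjusted p = 0.0315). That call was lost in 8 of 15 alternatives, with adjusted p-values of 0.0737 without WT replicate 1, 0.109 without WT replicate 3, 0.0894 without KO replicate 1 and 0.111 without KO replicate 3 among them.

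The count of LGALS8 may also hold reads of other genes. Of its 9710 annotated exon bases 30.6% lie in exons of overlapping genes on the opposite strand, 2095 bases of them in HEATR1, 673 in LGALS8-AS1 and 341 in AL359921.1, and the library kit named in the labels does not mark strand. HEATR1, a ribosome biogenesis factor, fell from 138.3 ± 3.99 to 88.1 ± 3.55 CPM (SD, n = 3 each), a log2 fold change of -0.65 ± 0.05 (SE, edgeR quasi-likelihood adjusted p = 3.75e-11). The part of HEATR1 reads in the LGALS8 difference was not tested.

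**Figure D1:**
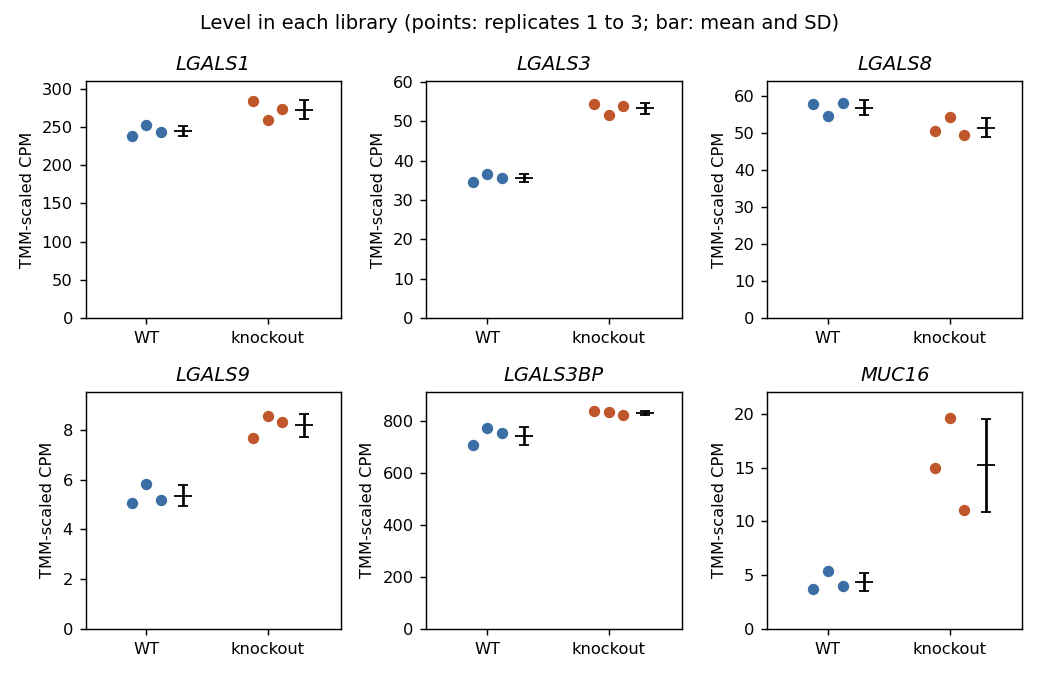
TMM-scaled CPM (vertical axes, from 0) of the 5 tested genes and of MUC16 in each library, with points for replicates 1 to 3 of the libraries labelled WT and knockout and a bar for the mean and SD. The groups do not overlap in any panel, with LGALS3 and LGALS9 higher by about the same factor (1.49 and 1.53) and LGALS8 lower. Over all genes tested 59.0% separated the groups in this way.

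The remaining members were near the limit of detection. LGALS2 had 0 counts in all 6 libraries, and a count of 0 allows up to 3 counts, or 0.102 to 0.154 CPM by library, for counting error only. LGALS4, an intestinal galectin, had 7, 7 and 4 counts in the WT-labelled libraries and 4, 5 and 3 in the knockout-labelled ones, which overlap. LGALS7, a keratinocyte galectin, had 1, 0 and 0 counts and then 6, 1 and 3, and its copy LGALS7B had 6, 3 and 1 counts and then 10, 9 and 10. An exact two-sided permutation test of CPM over the 6 libraries gave p = 0.1 for LGALS7 and for LGALS7B, the smallest that 3 against 3 allows, and p = 0.3 for LGALS4. For LGALS7 the groups separated only through library scaling. WT replicate 1 and KO replicate 2 each had 1 count, at 0.0379 and 0.0389 CPM. In a fit with no filter on low counts the adjusted p (edgeR quasi-likelihood) was 0.148 for LGALS7, 0.0864 for LGALS7B and 0.646 for LGALS4, so none of these passed singly.

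As the 2 galectin-7 genes, on chromosome 19 at 38770971 to 38773492 and 38789211 to 38791749, share their coding sequence except for the base shown above, their counts were also summed before the fit. Of 100-base windows in annotated transcripts, 38.4% of those of LGALS7 and 49.3% of those of LGALS7B were found in the other gene. The sum was 7, 3 and 1 counts in the WT-labelled libraries and 16, 10 and 13 in the knockout-labelled ones. The sum passed the filter only through the knockout-labelled libraries, where it is high, so its test is favoured by that selection. Its level went from 0.141 ± 0.113 to 0.551 ± 0.234 CPM (SD, n = 3 each), a log2 fold change of 1.84 ± 0.58 (SE, edgeR quasi-likelihood adjusted p = 0.00999). Without WT replicate 3 the adjusted p was 0.0584 with a log2 fold change of 1.48, and without KO replicate 1 it was 0.0716 with 1.495. The log2 fold change was 2.64 without WT replicate 1 and 1.23 with cyclic loess, against 1.84 in the fit reported. With no filter the adjusted p was 0.0116 (edgeR quasi-likelihood).

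Of the 9 other genes of the galectin family, listed for comparison, LGALSL and LGALS9B were tested and neither passed. The log2 fold changes were -0.04 ± 0.12 for LGALSL and 0.26 ± 0.32 for LGALS9B (SE, adjusted p = 0.811 and 0.519, edgeR quasi-likelihood). LGALS13, LGALS14, LGALS16 and CLC, galectins of placenta and eosinophils, had 0 counts in all 6 libraries.

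Levels per length, as CPM per kilobase of annotated exon (RPKM), put the genes on a common scale. LGALS1 was highest at 222.5 ± 6.45 RPKM in the WT-labelled libraries and 247.8 ± 11.2 RPKM in the knockout-labelled ones. LGALS3BP followed with 207.2 ± 9.62 and 231.5 ± 1.93 RPKM, and these neighbours in the order were close, with a ratio of LGALS3BP to LGALS1 between 0.902 and 0.982 in the 6 libraries. Both stood above 99.3% of the genes tested. LGALS3 came next at 14.9 ± 0.434 and 22.2 ± 0.623 RPKM, then LGALS8 at 5.86 ± 0.198 and 5.29 ± 0.262 RPKM and LGALS9 at 0.938 ± 0.0731 and 1.43 ± 0.0802 RPKM (SD, n = 3 each). LGALS7B, LGALS7 and LGALS4 lay at or below 0.795 RPKM in every library, and the values of each overlapped those of the others. The annotated exons of a gene include those of rare transcripts, 28 transcripts for LGALS8 and 7 for LGALS1, so the level of a gene with many alternative exons is understated.

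**Figure D2:**
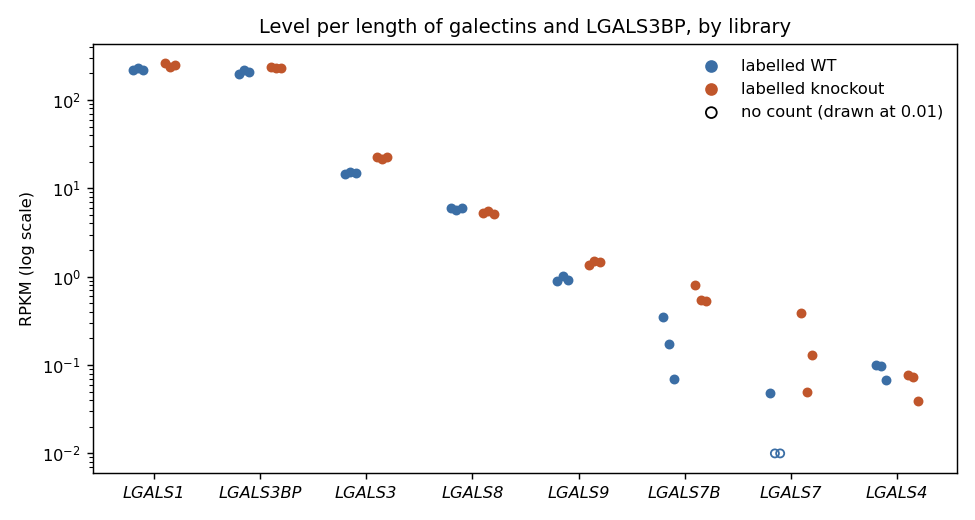
RPKM on a log axis for the 8 genes with any count, 1 point per library, ordered by the mean over 6 libraries; open circles are libraries with no count, drawn at 0.01. LGALS1 and LGALS3BP lie near 200 RPKM, an order of magnitude above LGALS3, and LGALS7B, LGALS7 and LGALS4 lie at or below 0.795 RPKM.

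Summed over the 8 galectins, without LGALS3BP, the level was 238.7, 251.8 and 242.9 RPKM in the WT-labelled libraries and 288.9, 265.4 and 278.5 RPKM in the knockout-labelled ones. The groups did not overlap, and the mean was 1.14-fold higher in the knockout-labelled libraries (exact two-sided permutation test of the log2 sums, p = 0.1, the smallest possible). LGALS1 made up 91.0% ± 0.151 of this sum in the WT-labelled libraries and 89.3% ± 0.248 in the knockout-labelled ones. LGALS3 made up 6.08% ± 0.0480 and 8.002% ± 0.147, LGALS8 2.40% ± 0.141 and 1.91% ± 0.169, and LGALS9 0.383% ± 0.0193 and 0.518% ± 0.04998 (SD, n = 3 each). The share of LGALS3 was thus higher, and that of LGALS1 lower, in each library labelled knockout than in any labelled WT.

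Ratios of members within a library do not depend on the factor by which each library is scaled. LGALS3 stood to LGALS1 as 0.0664, 0.0665 and 0.0674 in the WT-labelled libraries and as 0.0876, 0.0910 and 0.0904 in the knockout-labelled ones, on the per-length scale. LGALS3BP was lower relative to LGALS3, going from 13.7, 14.1 and 14.1 times LGALS3 to 10.3, 10.8 and 10.2 times. LGALS8 went from 0.413, 0.369 and 0.403 of LGALS3 to 0.230, 0.260 and 0.226. In contrast, LGALS9 to LGALS3 was 0.0613, 0.0669 and 0.0611 and then 0.0594, 0.0697 and 0.0648, which overlap. The 10 pairs of tested members come from 5 genes, so their ratios are not independent. Of single genes tested 59.0% separated the groups, and the share over pairs of any genes was not computed. Over the 10 pairs, 8 ratios separated the groups. Each had an exact two-sided permutation p of 0.1, the smallest possible, and 0.125 after Benjamini-Hochberg adjustment over the 10. The 2 that overlapped were LGALS9 to LGALS3 (exact permutation p = 0.7, 0.778 adjusted) and LGALS3BP to LGALS1 (p = 1), with log2 differences of 0.03 and 0.01.

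**Figure D3:**
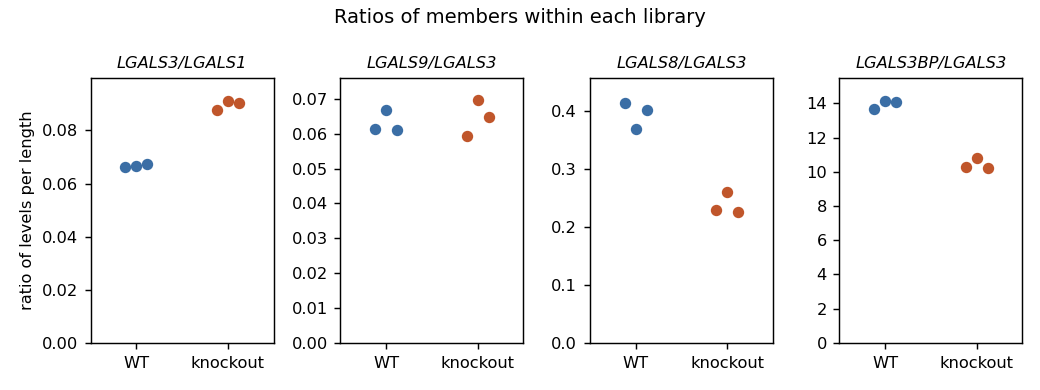
Ratios of levels per length within each library (vertical axes, from 0), 1 point per library, for 4 of the 10 pairs. LGALS3 to LGALS1 is higher and LGALS8 to LGALS3 and LGALS3BP to LGALS3 are lower in all 3 libraries labelled knockout, and LGALS9 to LGALS3 overlaps.

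How far the fold changes moved under other settings differed by gene. LGALS3 ranged from 0.55 to 0.63 on the log2 scale over 15 alternatives and LGALS9 from 0.47 to 0.68. LGALS1 ranged from 0.12 to 0.27 and LGALS3BP from 0.12 to 0.30, and all 4 genes kept their calls in all 15. LGALS8 ranged from -0.18 to -0.086, the value nearest 0 being that with cyclic loess. The highest values of LGALS1 and LGALS3BP also came with cyclic loess and moved each by more than 1.5 times.

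**Figure D4:**
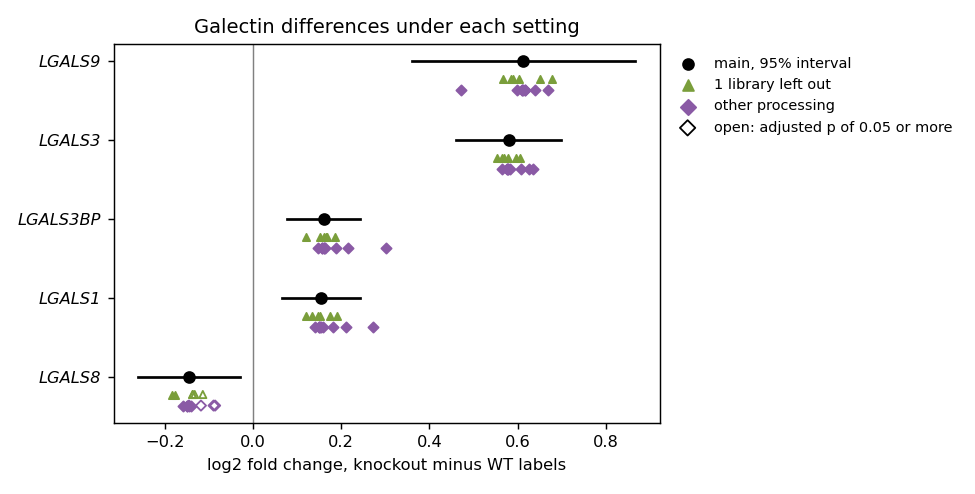
Log2 fold change, knockout minus WT labels (horizontal axis), of the 5 tested genes: black points and lines are the main value and its 95% interval, triangles leave out 1 library, diamonds use other processing, and open symbols have an adjusted p of 0.05 or more. Only LGALS8 has open symbols among these genes.

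The enzymes that build the galactosides galectins bind were more often higher than lower. Of 20 such enzymes 19 were tested, and 10 rose, 3 fell and 6 did not pass the test (edgeR quasi-likelihood; median log2 fold change 0.29, against 0.00348 for all genes tested). Over all genes tested 26.7% were called higher and 25.9% lower. The count of these enzymes that fell was 1 to 3 over 16 alternatives. MGAT3, which adds the bisecting branch of N-glycans, rose from 0.685 ± 0.0503 to 4.50 ± 0.0884 CPM (SD, n = 3 each), a log2 fold change of 2.70 ± 0.22 (SE). GCNT3, a mucin-type enzyme that starts core branches, rose from 170.0 ± 9.83 to 416.3 ± 1.63 CPM (1.29 ± 0.04). B3GNT5, which extends lactosamine chains on glycolipids, rose (0.44), while MAN2A1, the Golgi mannosidase needed for branching, fell (-0.48). B4GALT1, a major galactosyltransferase that was named after its value was seen, rose (0.39). MGAT1 (-0.19) and MGAT5 (-0.13) fell, as MAN2A1 did, and were also named after their values were seen.

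Sialic acid can mask or remodel galactose, and its enzymes were 5 higher, 2 lower and 6 not past the test of 13 (edgeR quasi-likelihood; median log2 fold change 0.07). The share called was near the 52.6% called over all genes tested. ST3GAL5, the ganglioside GM3 synthase, rose from 4.69 ± 0.554 to 14.2 ± 1.71 CPM (SD, n = 3 each). ST6GALNAC1 (log2 fold change 1.51 ± 0.13, SE), ST3GAL1 (0.71 ± 0.05) and the sialidase NEU1 (0.57 ± 0.05) also rose. The 2 that fell were another sialidase, NEU3 (-0.46 ± 0.07), and ST6GALNAC4 (-0.31 ± 0.06), both named after their values were seen. ST6GAL1, the transferase whose product blocks binding of galectin-1, did not pass (-0.03 ± 0.11, adjusted p = 0.855). ST6GAL1 too was named after its value was seen.

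Glycoproteins that galectins bind went both ways, 15 higher and 8 lower of the 26 tested (edgeR quasi-likelihood; median log2 fold change 0.21), beside 26.7% higher and 25.9% lower of all genes tested. MUC1 rose from 16.2 ± 1.93 to 99.2 ± 1.26 CPM and MUC4 from 5.88 ± 0.782 to 23.5 ± 6.51 CPM (SD, n = 3 each), beside MUC16 itself. DPP4, a membrane peptidase, rose from 3.09 ± 0.871 to 6.88 ± 1.05 CPM. The lysosomal membrane glycoproteins LAMP1 (0.19) and LAMP2 (0.22) rose, and the integrin subunit ITGB1 (-0.29) and the laminins LAMB1 (-0.43) and LAMC1 (-0.39) fell, 5 genes named after their values were seen. The enzymes and glycoproteins of these lists share libraries with the galectins, so their values stand side by side as a description.

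Intracellular partners of galectins, which act in lysosome repair, autophagy, splicing and signalling, were 7 higher and 8 lower of 20 tested (edgeR quasi-likelihood; median log2 fold change 0.04), where 26.7% and 25.9% of all genes tested were called higher and lower. TFEB, the transcription factor of lysosome genes, rose (0.60 ± 0.10, SE), as did FBXO27, which tags damaged lysosomes (0.54 ± 0.08). BCL2 (-0.53 ± 0.16) and GEMIN4, a partner of galectin-3 in the SMN complex (-0.52 ± 0.05), fell. CALCOCO2, the autophagy receptor that galectin-8 recruits, rose from 56.3 ± 1.31 to 68.4 ± 3.45 CPM, and TRIM16, a partner of galectin-3 at damaged membranes, fell from 76.3 ± 1.98 to 68.2 ± 1.58 CPM (SD, n = 3 each). The last 2 were named after their values were seen.

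LGALS3BP and LGALS9 are known to be induced by interferon, so 30 other interferon-stimulated genes were set beside them. Of these 21 rose, 1 fell and 8 did not pass the test (edgeR quasi-likelihood; median log2 fold change 0.41), against 26.7% called higher and 25.9% lower over all genes tested. The antiviral genes OASL (1.15 ± 0.05, SE), RSAD2 (0.85 ± 0.10), HERC5 (0.83 ± 0.07) and CMPK2 (0.78 ± 0.10) rose most. The 30 genes summed to 1853, 2126 and 2038 CPM in the WT-labelled libraries and to 2472, 2458 and 2439 CPM in the knockout-labelled ones. The order of the 6 libraries by this sum, lowest WT replicate 1 and highest KO replicate 1, was also their order by LGALS3BP, an observation made after the values were seen and given with no test. LGALS9 did not follow that order, since KO replicate 1 was its lowest knockout-labelled library.

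**Figure D5:**
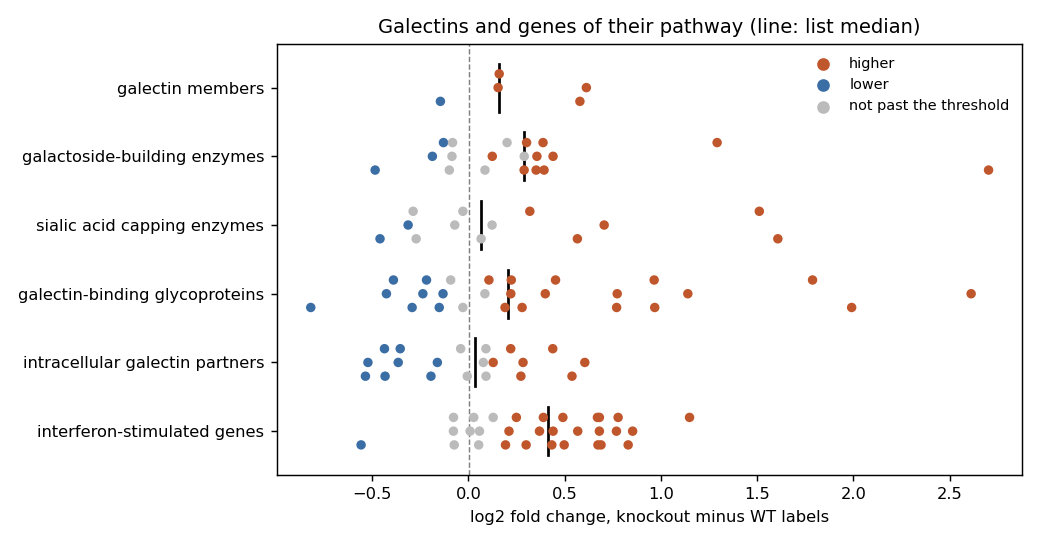
Log2 fold change, knockout minus WT labels (horizontal axis), of each tested gene in the galectin members and 5 lists of related genes, coloured by call, with a black line at each list's median and a dashed line at the median of all genes tested (0.00348). The interferon-stimulated genes have the rightmost median, 0.41, and the intracellular partners spread to both sides of 0.

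The nearest tested genes on each side of the tested members, overlapping genes left out, did not share their direction throughout. Beside LGALS3, the mitotic spindle gene DLGAP5, 2698 bases away, fell (log2 fold change -0.55 ± 0.06, SE, edgeR quasi-likelihood). MAPK1IP1L, 53917 bases away, did not pass (-0.01 ± 0.05). LGALS1 lies 1866 bases from NOL12, a nucleolar gene that fell (-0.60), and 8673 bases from the phosphatase PDXP, which rose (0.23). Both neighbours of LGALS3BP rose, the metalloproteinase inhibitor TIMP2 (1.04), 45850 bases away, and the nucleotidase CANT1 (0.16), 11607 bases away. KSR1, a scaffold of MAP kinase signalling 3359 bases from LGALS9, rose (0.63), and NLK, a kinase 392176 bases away on the other side, fell (-0.25). Around LGALS8, EDARADD, 15084 bases away, did not pass (-0.20 ± 0.29) and the methionine synthase MTR, 242299 bases away, fell (-0.34).

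Among 9434 other protein-coding genes at 10 CPM or more on average, those whose log2 CPM over the 6 libraries most resembled LGALS1 were NUS1, a subunit of the dolichol-making enzyme (Pearson r = 0.996), GPANK1 (0.990) and the histone gene HIST1H2BK (0.990). For LGALS3BP they were the neuropeptide gene NMB (0.996), the mitochondrial thymidine kinase TK2 (0.995) and the neuroligin NLGN2 (0.995). These r values describe 6 libraries in 2 groups and were picked as the highest of many. How much of each comes from the difference between the groups was not tested. NUS1 was not called (log2 fold change 0.08, edgeR quasi-likelihood adjusted p = 0.134), and the others were called higher.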

How the data were processed

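Gene-level RNA-seq counts of T3M4 cells, 3 libraries labelled WT and 3 labelled MUC16 knockout, were analysed as the authors deposited them, 1 raw count column per library. Per the labels' protocols, libraries came from the NEBNext Ultra RNA kit. As background, that kit does not mark strand. The submitters' processing notes list GRCh38 and the tools fastp, HISAT2, STAR and DESeq; what each did, its version and the counting tool are not given here by any source. The authors' second table holds the same counts, a signal (counts the authors divided by 1 factor per library), FPKM per the file headers and, per the file headers, log2 fold changes and p-values. Of these, only log2 fold changes are quoted here.

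The test was edgeR's two-sided quasi-likelihood test (version 4.0.16, R 4.3.3) with the group alone in the model and TMM factors. A filter (filterByExpr with a minimum count of 10 and total of 15) left 16655 genes, all tested, with Benjamini-Hochberg adjustment and a threshold of 0.05. The fit was also run on simulated data, where 153 of 200 changed genes and 6 unchanged genes were called. The simulation gave all genes a common spread, so differences in spread between genes were not covered. CPM are TMM-scaled, and RPKM are these CPM divided by the deposited gene length, which for the 9 genes equals the bases in GENCODE 29 exons. Library totals were 19088927 counts or more, and counting error grows as a gene's count falls (LGALS9 had 116 to 157 counts in the libraries labelled WT). Counts of same-group libraries differed beyond sampling noise (chi-square per degree of freedom 2.44 to 6.17).

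The members and lists were chosen with earlier results of these data known. Named genes are the members and MUC16, from every list the called genes with the 4 greatest absolute changes (if none was called, the lowest 2 by p), the nearest tested gene on each side of each tested member, and for the 2 members with the highest RPKM the 3 most correlated genes. HEATR1 was added for its overlap, and genes outside this rule are marked in the text. Alternatives changed the scaling (DESeq2 size factors, upper quartile, or cyclic loess with limma-trend, limma 3.58.1), the filter (none, or 50 counts in 3 libraries) and the tool (limma-voom or DESeq2 1.42.0), or used a replicate block, each library left out, an adjusted p of 0.01 and protein-coding genes alone. The recomputed sums and ratios of galectins were added after the data were seen.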

Additional observations from a re-analysis of the deposited data

How the results depend on the processing

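The count of galectin members that rose was 4 under each alternative. The count that fell, 1 (LGALS8), was 0 with upper-quartile factors, cyclic loess, the stricter filter, an adjusted p of 0.01 and the replicate block, and 0 to 1 with a library left out. The adjusted p of LGALS8 was 0.185, 0.202, 0.069 and 0.0506 in the first 3 and the block, and the cause was not tested. Correlations of the deviations of same-numbered libraries were -0.024 to 0.0205, so the numbers give no pairing, and the block took all calls from 8759 to 8442. With cyclic loess galactoside-building enzymes had 1 lower (3 in the fit reported, 1 to 3 over 16 alternatives) and galectin-binding glycoproteins 5 lower. Interferon-stimulated genes had 1 to 2 lower with a library left out, the 2 being without WT replicate 1. The log2 difference in summed galectin RPKM, 0.18, was 0.24 with upper-quartile factors and 0.29 with cyclic loess. Genes that had not passed changed sign: MAPK1IP1L was 0.049 with upper-quartile factors, 0.074 with cyclic loess, 0.021 with the stricter filter, and -0.029 to 0.013 with a library left out, LGALSL was 0.016 with upper-quartile factors and -0.13 to 0.041 with a library left out, and LGALS9B was -0.037 with cyclic loess. PDXP, NLK and GPANK1 lost their calls in 6, 1 and 7 alternatives and NUS1 gained one in 3. Upper-quartile factors moved the median of all genes to 0.06. The lowest counts, such as those of LGALS7 and LGALS4, were the most limited by depth, and DESeq2, limma-voom, protein-coding genes alone and DESeq2 size factors kept all 5 galectin calls.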
